A study of Homo sapiens with 13 samples.

Results

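The 225 peaks described here are all those in 4 ChIP-seq peak lists of MDA-MB-231 cells whose start lies on chromosome 6 between 26 and 29 Mb (hg19), out of 50467 peaks in the 4 lists. They comprise 8 YAP, 95 TAZ, 98 TEAD4 and 24 JUN peaks. The interval was selected on peak counts and overlaps in these same lists, which hold many TAZ and TEAD4 peaks but few YAP peaks there, so all values are given as a description, without a test. MDA-MB-231 is an established human breast cancer cell line, grown here without any treatment or genetic change named in the labels, so the data describe 1 line in 1 state. The study mapped YAP, TAZ (the antibody is labelled WWTR1, the gene that encodes TAZ), TEAD4 and JUN with 2 libraries each, beside 2 rabbit and 3 mouse IgG control libraries. YAP and TAZ peaks were called against the 2 rabbit IgG libraries pooled, and TEAD4 and JUN peaks each against a pool of 2 mouse IgG libraries, of which they share 1. Antibody, control and sequencing run differ together between YAP and TAZ on one side and TEAD4 and JUN on the other, so factor and run cannot be told apart between the sides. A single list stands for both replicates of a factor, so no value below has a spread between replicates.

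YAP and TAZ are the paired coactivators that the Hippo pathway holds in check. They do not bind DNA themselves and reach it through partners, chiefly the TEAD family, of which TEAD4 is a member, and AP-1, of which JUN is a subunit, is known to sit at many of the same enhancers. The short arm of chromosome 6 is known for the main cluster of replication-dependent histone genes, which are transcribed by RNA polymerase II in S phase, and for a large cluster of transfer RNA genes, which are transcribed by RNA polymerase III. In the RefSeq gene table (GRCh38.p14), chromosome 6 carries 155 of 465 tRNA genes (33.3%) and 55 protein-coding histone genes: 6 for H1, 12 for H2A, 15 for H2B, 10 for H3 and 12 for H4. By gene order alone, 98 of the tRNA genes lie between the first and the last of these histone genes. Of these, 47 lie between the neighbouring histone genes H4C8 and H2BC11, and 51 between H2AC12 and H2BC13. The gene table and the peaks are on different builds, so which peak lies at which gene was not analysed here, and the sites are named by position.

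TAZ and TEAD4 peaks were dense in the interval, and YAP and JUN peaks were not. The TAZ list had 31.7 peaks per Mb there against 3.65 over the rest of chromosome 6, a ratio of 8.68. The TEAD4 list had 32.7 against 3.40 per Mb, a ratio of 9.62. The YAP list had 2.67 against 3.04 per Mb (ratio 0.88), and the JUN list 8.00 against 9.13 (ratio 0.88). Exact Poisson 95% intervals, which cover counting error only, ran from 25.6 to 38.7 peaks per Mb for TAZ, 26.5 to 39.8 for TEAD4, 1.15 to 5.25 for YAP and 5.13 to 11.9 for JUN. The interval held 13.5% of the TAZ peaks and 14.7% of the TEAD4 peaks of chromosome 6, against 1.55% of its YAP and 1.55% of its JUN peaks. Peaks covered 3.04% of its bases for TAZ and 2.14% for TEAD4, against 0.230% and 0.180% of the rest of the chromosome. With only the stronger 50% of each list by −log10 p, the density ratio was 15.5 for TAZ and 17.3 for TEAD4. For TAZ that cut kept 83 of 95 peaks in the interval and 299 of 611 on the rest. For TEAD4 it kept 82 of 98 and 264 of 569. The larger ratios therefore restate the high −log10 p of these peaks and are no separate result.

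The 3 bins of 1 Mb that make up the interval held 23, 34 and 38 TAZ peaks, from the first to the last. The other bins of chromosome 6 had a median of 3 TAZ peaks and at most 18. Among the 2273 bins of the genome with a TAZ peak, these 3 ranked 4, 2 and 1, and the densest bin elsewhere, on chromosome 11, held 24. They held 29, 32 and 37 TEAD4 peaks and were the 3 densest of 2193 bins with a TEAD4 peak. The densest TEAD4 bin outside the interval also lay on chromosome 6, between 11 and 12 Mb, and held 23. For JUN the same 3 bins held 11, 3 and 10 peaks and ranked 48, 134 and 59 among the 171 bins of chromosome 6.

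**Figure D1:**
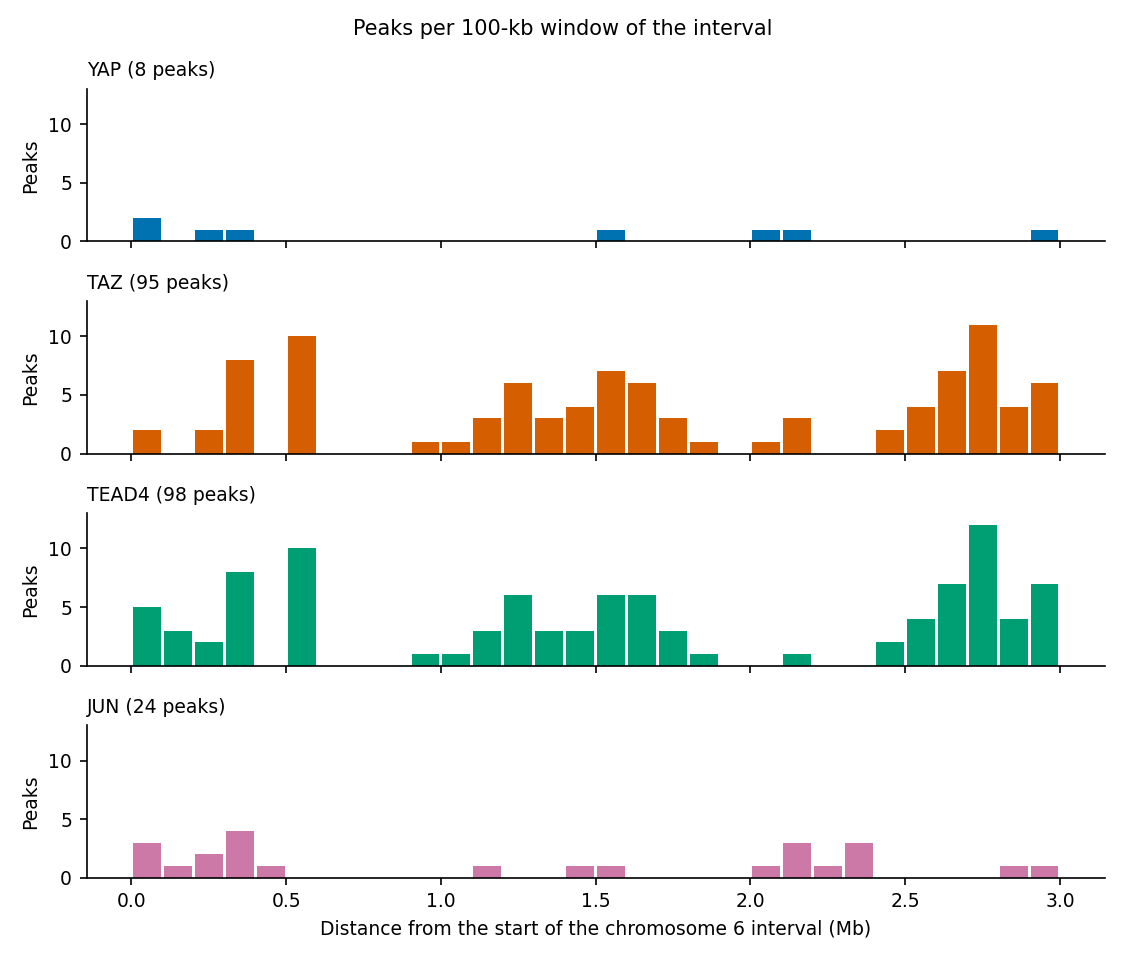
Number of peaks of each list (vertical axis) in 30 windows of 100 kb, plotted by distance in Mb from the start of the chromosome 6 interval; each bar is 1 window. TAZ and TEAD4 bars follow one another from window to window, up to 11 and 12 peaks, and no YAP window holds more than 2.

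Within the interval the TAZ and TEAD4 peaks came in groups. Of 30 windows of 100 kb, 23 held a TAZ or TEAD4 peak and 7 held neither. The fullest window, from 28700001 to 28800000, had 11 TAZ and 12 TEAD4 peaks and no YAP or JUN peak. The next, from 26500001 to 26600000, had 10 of each, again with no YAP or JUN peak. The window from 26300001 to 26400000 had 8 TAZ and 8 TEAD4 peaks together with 1 YAP and 4 JUN peaks. The longest run of windows without TAZ or TEAD4 spanned 26600001 to 26900000, and it held no YAP or JUN peak either. In both lists the widest gap between neighbouring summits fell there, 393011 bp for TAZ and 393029 bp for TEAD4.

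The interval was not uniform, and its stretches differed in which factors they held. The boundaries of these stretches were drawn after the peak positions had been seen. From 26 to 26.2 Mb there were 8 TEAD4 and 4 JUN peaks but only 2 TAZ peaks, both of them with YAP, and no region with TAZ and TEAD4 alone. The 8 TEAD4 peaks there had a median −log10 p of 32.3 and a median enrichment of 3.88, the lowest of the stretches. From 26.2 to 26.6 Mb there were 20 TAZ, 20 TEAD4, 7 JUN and 2 YAP peaks. The stretch from 26.9 to 27.9 Mb held 35 TAZ and 33 TEAD4 peaks, 3 JUN peaks and 1 YAP peak, and 30 of its 37 merged regions had TAZ and TEAD4 only. From 27.9 to 28.4 Mb the order turned round, with 8 JUN peaks against 4 TAZ peaks and 1 TEAD4 peak. The last stretch, from 28.4 to 29 Mb, was the densest, with 34 TAZ peaks (56.7 per Mb) and 36 TEAD4 peaks (60.0 per Mb) beside 2 JUN peaks and 1 YAP peak.

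TAZ and TEAD4 in the interval occupied the same sites, mostly without a listed YAP or JUN peak. Of the 95 TAZ peaks, 84 (88.4%, Clopper-Pearson 95% interval 80.2 to 94.1) overlapped a TEAD4 peak by at least 1 bp, against 70.7% on the rest of chromosome 6 and 67% in the whole list. Of the 98 TEAD4 peaks, 90 (91.8%, 84.5 to 96.4) overlapped a TAZ peak, against 77.0% on the rest of the chromosome and 78.8% in the whole list. YAP was present at 8 TAZ peaks (8.42%, 3.71 to 15.9), where the rest of the chromosome had 76.9% and the whole list 72.5%. A JUN peak was listed at 7 TAZ peaks (7.37%, 3.01 to 14.6), against 76.1% and 74.7%. The lowest −log10 p in the JUN list was 54.4, where the YAP, TAZ and TEAD4 lists went down to 24.3, 22.0 and 24.7. At TEAD4 peaks the shares were 6.12% with YAP and 4.08% with JUN, against 69.6% and 67.0% on the rest of the chromosome (68.7% and 68.3% in the whole list). How far TAZ and TEAD4 shared sites more than elsewhere depended on the overlap rule. If 50% of both peaks had to overlap, 66.3% of TAZ peaks shared a site with TEAD4 in the interval and 66.4% on the rest of the chromosome, and for TEAD4 peaks with TAZ the shares were 64.3% and 71.4%. With summits within 200 bp, the shares were 86.3% and 69.9% for TAZ peaks and 83.7% and 75.04% for TEAD4 peaks. With all lists trimmed to 7709 peaks, the difference from the rest was 8.33 percentage points for TAZ with TEAD4 and -37.7 for TAZ with JUN.

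Merging all overlapping peaks gave 119 regions in the interval. Of these, 78 (65.5%, 56.3 to 74.0) held TAZ and TEAD4 only, a class that made up 1.64% of all 28100 regions and 0.911% of the 1757 on the rest of chromosome 6. JUN alone was found at 16 regions (13.4%, 7.89 to 20.9), against 58% of all regions. All 4 factors met at 3 regions (2.52%), a class with 15.2% of all regions. Both shares are of a total that includes the 78 TAZ and TEAD4 regions, so they are not densities. Of the JUN peaks themselves, 66.7% overlapped no other list, against 65.3% on the rest of chromosome 6. The remaining regions were 7 with TAZ alone, 7 with TEAD4 alone, 3 with YAP, TAZ and TEAD4, 2 with YAP, TAZ and JUN, 2 with TAZ and JUN, and 1 with TEAD4 and JUN. No region held YAP without TAZ.

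**Figure D2:**
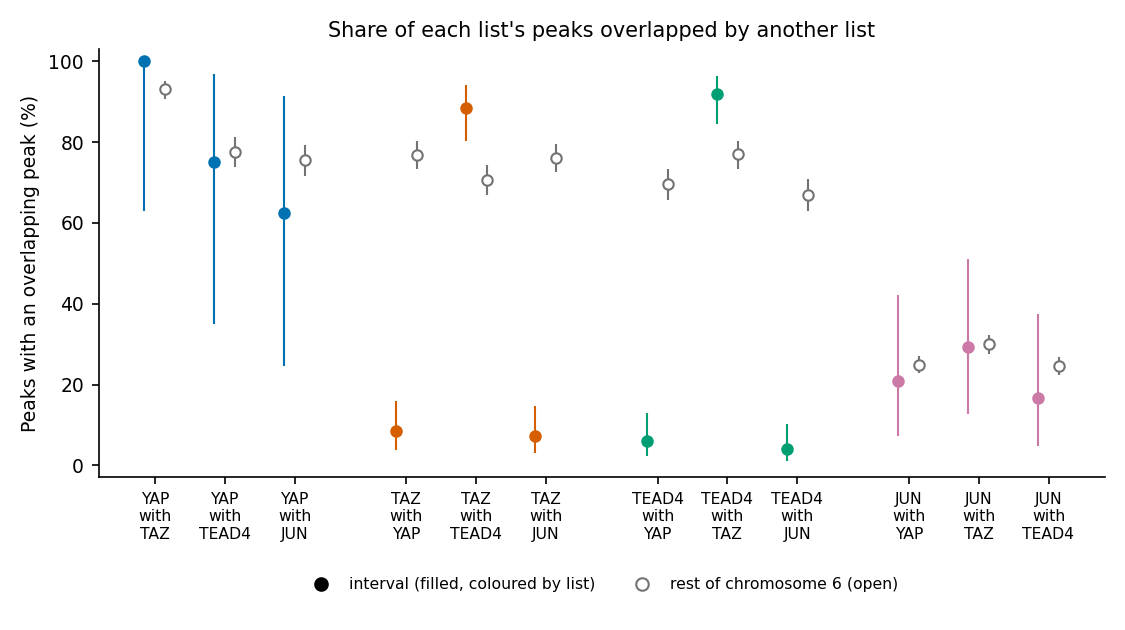
Share of the peaks of each list (vertical axis, percent) that overlap a peak of another list by at least 1 bp; filled points are the interval, open points the rest of chromosome 6, and bars are Clopper-Pearson 95% intervals for counting error. For TAZ with YAP the points lie at 8.42% and 76.9%, whereas JUN with TAZ lies at 29.2% and 29.95%.

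TAZ and TEAD4 peaks of the interval stood out by their p-values and hardly by their fold enrichment over IgG. Both are the authors' values for each peak and are compared only within a list. The −log10 p of the TAZ peaks ran from 22.7 to 205 with a median of 132, against a median of 40.6 on the rest of chromosome 6. That of the TEAD4 peaks ran from 24.9 to 222 with a median of 132, against 45.6. The enrichment of the same TAZ peaks had a median of 7.35 (range 3.48 to 12.96) against 6.91, and that of the TEAD4 peaks 7.96 (3.37 to 11.3) against 6.82. Among the stronger 50% of each list by −log10 p, the ratio of median enrichment to the rest was 0.85 for TAZ and 0.90 for TEAD4. The ratio of −log10 p was 2.06 for TAZ. That cut kept 83 of 95 TAZ peaks in the interval and 299 of 611 on the rest, where −log10 p follows enrichment closely (Spearman's rho 0.84). Ratios of enrichment below 1 therefore follow at least in part from the cut. The most enriched peaks of the chromosome outside the interval reached 26.1-fold for TAZ and 23.1-fold for TEAD4. In the whole lists, 76 of the 95 TAZ peaks (80%, against 20% by construction) and 68 of the 98 TEAD4 peaks (69.4%) ranked in the top 20% by −log10 p. By enrichment, 13 TAZ peaks (13.7%) and 5 TEAD4 peaks (5.10%) ranked in the top 20%. On the rest of the chromosome the shares by −log10 p were 17.2% for TAZ and 16.3% for TEAD4, and by enrichment 18.8% and 15.6%.

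At like enrichment, most peaks of the interval had a higher −log10 p than the typical peak of their list, and TAZ and TEAD4 peaks stood furthest up. The lists give no read counts, so the reads behind a peak are unknown here. Between 5-fold and 7-fold, the 32 TAZ peaks of the interval had a median −log10 p of 129, against 31.7 for the 225 TAZ peaks of the rest of chromosome 6. Between 7-fold and 9-fold, the 44 TEAD4 peaks had a median of 150 against 53.6 for 128 peaks. Among the 12 TEAD4 peaks between 3-fold and 5-fold the median was 28.03 against 28.38. Set beside all peaks of the same list outside the interval with an enrichment within 10% of its own, the median TAZ peak of the interval stood at the 98.5th percentile of −log10 p, and 68 of 95 (71.6%) stood above the 95th. The same held for 72 of the 98 TEAD4 peaks (73.5%). Of the peaks on the rest of chromosome 6, 9.49% of TAZ and 7.91% of TEAD4 peaks stood above it. YAP and JUN peaks of the interval stood at median percentiles of 82.5 and 83.1, with 2 of 8 and 3 of 24 above the 95th. The rest was pooled, and whether other stretches of the chromosome show a like shift was not analysed. Single peaks there did. At 10.3 Mb from the start of the interval a YAP peak of 4.43-fold had a −log10 p of 48.5. At 11.2 Mb a TAZ peak of 5.51-fold had 65.9. Between 7-fold and 9-fold, the 11 JUN peaks had a median −log10 p of 87.8 against 69.6 on the rest of the chromosome. Across peaks, Spearman's rho between enrichment and −log10 p was 0.44 for TAZ in the interval (n = 95) and 0.84 on the rest of the chromosome (n = 611), and 0.63 (n = 98) and 0.87 (n = 569) for TEAD4. These peaks share libraries and controls, so the correlations are descriptions.

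YAP and JUN peaks of the interval did not share the high −log10 p medians. The median enrichment was 5.15 for the 8 YAP peaks against 7.15 on the rest of the chromosome, and 8.36 for the 24 JUN peaks against 11.3. The median −log10 p was 33.2 against 41.5 for YAP and 97.9 against 107 for JUN. With 8 YAP peaks the order-statistic interval of a median spans their whole range, 3.76 to 10.2 for enrichment and 27.8 to 124 for −log10 p, and both include the value of the rest.

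**Figure D3:**
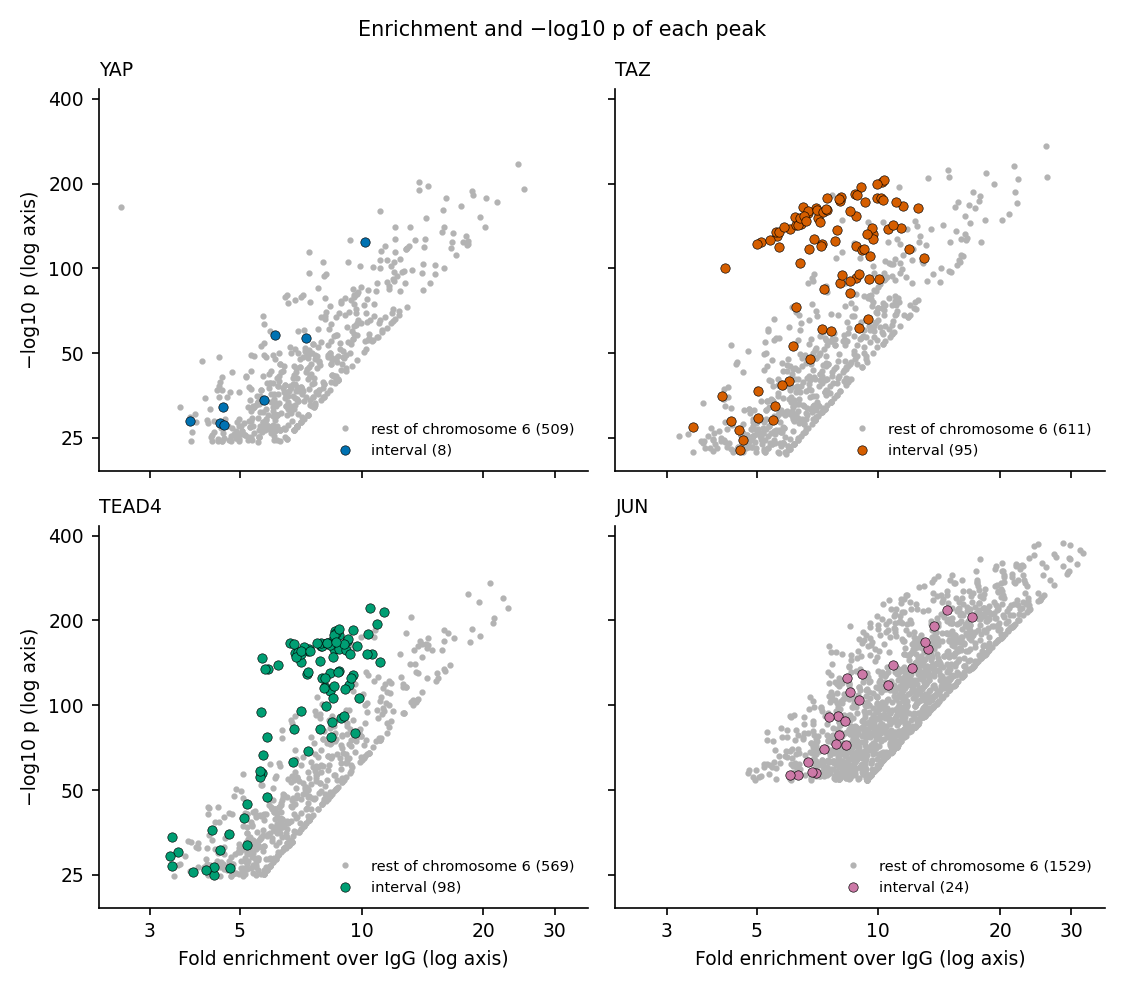
Fold enrichment over IgG (horizontal log axis) and −log10 p (vertical log axis) of every chromosome 6 peak, 1 panel per list; coloured points lie in the interval and grey points on the rest of the chromosome. Most TAZ and TEAD4 points of the interval lie in the upper part of the grey band or above it at the same enrichment, and the JUN points lie within it. Over all peaks, whatever their enrichment, the medians were 132 against 40.6 for TAZ and 132 against 45.6 for TEAD4.

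The TAZ and TEAD4 peaks of the interval with the highest −log10 p or enrichment, named here, overlapped no listed YAP or JUN peak. By −log10 p the first TAZ peak, from 28574309 to 28575250, reached 205 at 10.3-fold, and the next lay from 27247712 to 27249083 (202, 10.2-fold) and from 28848477 to 28849550 (199, 9.91-fold). The first TEAD4 peak by −log10 p, from 26577098 to 26577671, reached 222 at 10.5-fold. It was followed by peaks from 28920785 to 28921466 (215, 11.3-fold) and from 28911175 to 28911833 (195, 10.9-fold), which were also the most and the third most enriched. The most enriched TAZ peak, from 28714935 to 28715811, had 12.96-fold and a −log10 p of 109. The site between 27635592 and 27636662 was the second most enriched of both lists, at 12.5-fold for TAZ and 11.1-fold for TEAD4. Each of these peaks overlapped the other factor. By enrichment the TAZ peak at 28714935 ranked at percentile 91.1 of its whole list, and no other peak of the interval ranked higher in its own.

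**Figure D4:**
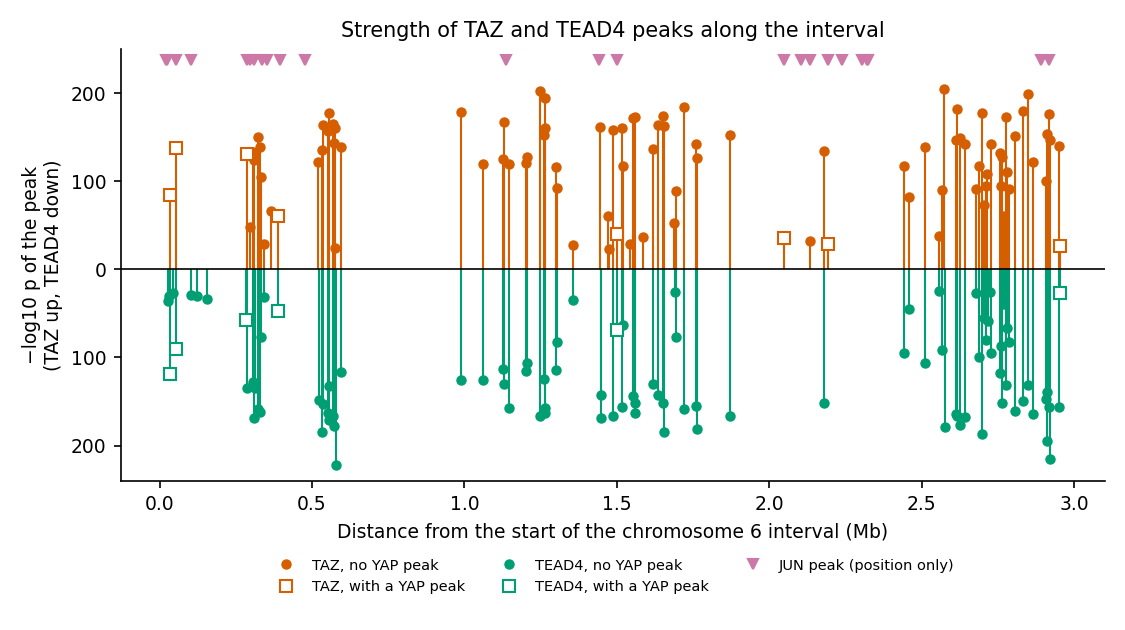
−log10 p of each TAZ peak (upwards) and TEAD4 peak (downwards) by distance in Mb from the start of the interval; open squares overlap a YAP peak, filled points do not, and triangles mark the positions of JUN peaks. Tall TAZ and TEAD4 stems face each other, up to 205 and 222, and the 8 TAZ peaks with YAP reach at most 138.

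TAZ peaks in the interval were wide, also in comparison with the TEAD4 peaks at the same sites. The median TAZ width was 861 bp (range 292 to 3001) against 579 bp on the rest of chromosome 6, a ratio of 1.49. TEAD4 peaks had 574.5 bp (271 to 2605) against 489 bp (ratio 1.17), and JUN peaks 882.5 bp against 706 bp (ratio 1.25). The 8 YAP peaks had a median of 519.5 bp against 538 bp. In the 84 pairs of an overlapping TAZ and TEAD4 peak, the TAZ peak was wider in 79 (94.0%), with a median ratio of widths of 1.61 (binomial order-statistic interval 1.49 to 1.74). On the rest of the chromosome it was wider in 66.0% of 432 pairs, with a median ratio of 1.11 (1.07 to 1.14). For enrichment the median ratio of TAZ to TEAD4 was 0.99 in the interval and 1.02 on the rest. The lists were called from different runs with different IgG controls. A difference in width between TAZ and TEAD4 peaks therefore cannot be told apart from one between their libraries. The same lists stand on both sides where the interval and the rest are compared.

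At 6 of the 92 regions with TEAD4 (6.52%), 1 TAZ peak spanned 2 TEAD4 peaks, whereas 8 of 561 TEAD4 regions (1.43%) on the rest of the chromosome held more than 1 TEAD4 peak. The widest TAZ peak of the interval, from 26311153 to 26314153 (3001 bp, 5.12-fold, −log10 p 124), was one of them, with TEAD4 summits 1377 bp apart. Another TAZ peak, from 26553181 to 26555873 (2693 bp), covered TEAD4 summits 1231 bp apart. In the other 4 regions the TEAD4 summits were 860 to 1004 bp apart. The −log10 p of these TEAD4 peaks ran from 57.3 to 195.

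TAZ and TEAD4 summits followed one another closely. The median distance to the nearest TAZ summit was 6215 bp in the interval against 30504 bp on the rest of chromosome 6, and 64.2% of TAZ peaks had another within 10 kb, against 30.9%. For TEAD4 the median was 4846 bp against 39436 bp, with 71.4% within 10 kb against 26.2%. Among the stronger 50% of each list the spacing ratio to the rest was 0.0934 for TAZ and 0.0522 for TEAD4, where all peaks gave 0.204 and 0.123. That cut, by −log10 p, thinned the peaks of the rest more than those of the interval, so the lower ratios are no separate result. Very close neighbours were more frequent only in the TEAD4 list: 23.5% of TEAD4 summits but 8.42% of TAZ summits had another within 2 kb, against 10.4% and 10.3% on the rest. JUN summits had a median of 27266.5 bp against 15626 bp. The 8 YAP summits had a median of 123476 bp (22174 to 547858) against 42519 bp, a ratio of 2.90 with an interval of 0.52 to 12.9, and among the stronger 50% of the list, with 3 YAP peaks left, the ratio was 0.22.

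Between the lists, TAZ and TEAD4 summits lay a little further apart than elsewhere. The median distance over the 84 overlapping pairs was 27 bp (binomial order-statistic interval 19 to 35), against 17 bp over 432 pairs on the rest of the chromosome (14 to 19) and 17 bp on the other chromosomes. Of the 84 pairs, 77.4% lay within 50 bp and 95.2% within 100 bp, against 87.3% and 96.8% on the rest. The farthest pair was 289 bp apart. The TAZ peaks of these pairs were also wider, with medians of 890.5 bp in the interval and 599 bp on the rest. Distances were not scaled to width, so the larger distance is not shown to be a separate trait. Most TAZ peaks were far from any JUN summit, with a median distance to the nearest of 83922 bp against 41 bp on the rest of the chromosome. From TAZ peaks to the nearest YAP summit the median was 168315 bp, against 23 bp. In the other direction, JUN summits lay nearer to TAZ and TEAD4 than on the rest. Their median distance to the nearest TAZ summit was 6544.5 bp against 24124 bp, and to the nearest TEAD4 summit 7675 bp against 29306 bp.

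**Figure D5:**
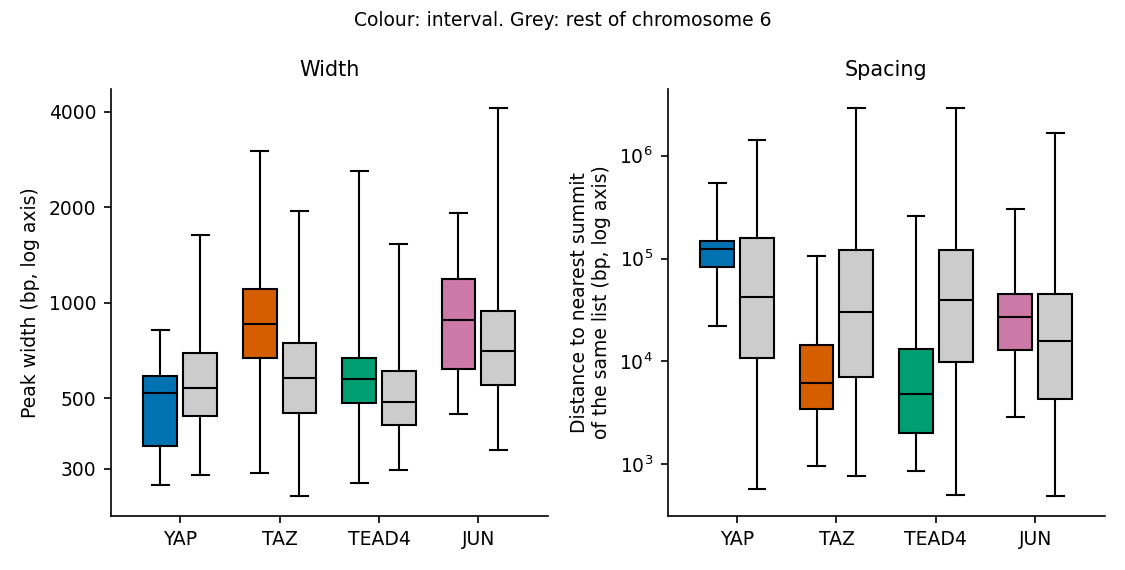
Peak width (left) and distance to the nearest summit of the same list (right), both in bp on log axes, for the interval (coloured) and the rest of chromosome 6 (grey); boxes span the quartiles with the median as a line, and whiskers reach the lowest and highest value. TAZ shows the larger width, with medians of 861 against 579 bp, and TAZ and TEAD4 the shorter spacing, with medians of 6215 and 4846 bp.

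All 8 YAP peaks of the interval overlapped a TAZ peak, as did 92.4% of the whole YAP list. TEAD4 was present at 6 of the 8 (74.6% of the whole list) and JUN at 5 (77%). The strongest, from 26055070 to 26055700, had 10.2-fold enrichment and a −log10 p of 124. It was the 1 YAP peak of the interval in the top 20% of its list by −log10 p, and all 4 factors met there, with TAZ at 10.6-fold, TEAD4 at 8.89-fold and JUN at 8.25-fold. The 4 summits lay between 26055351 and 26055360. With its summit 22174 bp away, the peak from 26032851 to 26033673 had 6.11-fold (−log10 p 58.2), with TAZ at 7.35-fold and TEAD4 at 9.31-fold but no JUN peak. YAP and TAZ had the same summit base there, 26033181.

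The other YAP peaks had a lower −log10 p. The first named here was more enriched than the peak from 26032851 to 26033673 (6.11-fold). The peak from 26388219 to 26388694 (7.27-fold, −log10 p 56.8) lay with TAZ at 7.28-fold and TEAD4 at 5.85-fold. The peak from 27500558 to 27501120 (5.73-fold, 34.2) was another site of all 4 factors, with TAZ at 6.02-fold, TEAD4 at 7.36-fold and JUN at 6.86-fold. The third 4-factor region ran from 26284906 to 26287069 and had summits in separate places. YAP (4.54-fold, summit 26285811), JUN (9.11-fold, summit 26285858) and 1 TEAD4 peak (5.68-fold, summit 26285837) lay together, whereas the TAZ summit, at 26286725, lay beside the other TEAD4 summit, at 26286748. That TAZ peak had a −log10 p of 131 and its TEAD4 neighbour 135, against 57.3 for the TEAD4 peak at the YAP summit. By overlap this region counts as 1 site of 4 factors, and by summits it holds 2.

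The remaining 3 YAP peaks, all under 5-fold, lay from 28048522 to 28048859 (3.76-fold), from 28192593 to 28193166 (4.48-fold) and from 28953273 to 28953539 (4.57-fold). The first 2 of these had TAZ at 4.11-fold and 4.31-fold and JUN at 7.55-fold and 10.5-fold, without TEAD4. The last had TAZ at 4.52-fold and TEAD4 at 4.74-fold, without JUN. TAZ peaks with YAP were weaker than those without: a median −log10 p of 50.3 (n = 8, range 26.6 to 138) against 135 (n = 87, 22.7 to 205), with median widths of 539 and 877 bp. The ranges overlap.

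JUN peaks stood without the other factors about as often in the interval as elsewhere. Of the 24 peaks, 16 (66.7%, 44.7 to 84.4) overlapped no other list, against 65.3% on the rest of chromosome 6, and 7 overlapped TAZ (29.2%, against 29.5% of the whole list), 5 YAP (20.8%, against 23.9%) and 4 TEAD4 (16.7%, against 23.1%). In lists trimmed to 7709 peaks, 5 JUN peaks were left in the interval, and their shares differed from the rest by -20.1 percentage points with TAZ (1 of 5 against 40.1%), -43.0 with YAP (0 of 5) and -35.5 with TEAD4 (0 of 5). The most enriched JUN peak, from 28237216 to 28237752, had 17.0-fold and a −log10 p of 206, and the next, from 28915457 to 28916173, had 14.8-fold and 218. Both overlapped no peak of the other 3 lists, although the second lay between TAZ peaks that ended at 28912693 and began at 28918423. The third, from 26295624 to 26297537, was also the widest (1914 bp, 13.7-fold, −log10 p 192) and overlapped a TAZ peak of 6.77-fold. In that region the JUN summit was at 26296694 and the TAZ summit at 26296222. JUN peaks alone and JUN peaks with another factor had median enrichments of 8.36 (n = 16) and 8.39 (n = 8).

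TAZ and TEAD4 peaks without each other had low medians. The 11 TAZ peaks without TEAD4 had a median −log10 p of 32.5 (range 22.7 to 66.2), and 4 of them overlapped JUN. Their median enrichment was 5.05, with a range of 4.11 to 9.43. The 8 TEAD4 peaks without TAZ had a median −log10 p of 30.4 (25.96 to 36.1) and a median enrichment of 3.82 (3.37 to 5.22). Of these 8, 6 lay before 26.2 Mb, among them the widest TEAD4 peak of the interval, from 26156512 to 26159116 (2605 bp, 3.40-fold, −log10 p 34.1). At the 78 regions with TAZ and TEAD4 only, the TAZ peaks had a median −log10 p of 140 and the TEAD4 peaks 147. Across the 84 pairs, Spearman's rho between TAZ and TEAD4 was 0.72 for −log10 p, 0.62 for width and 0.30 for enrichment. Over the 432 pairs on the rest of the chromosome it was 0.63, 0.53 and 0.65.

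The 78 regions with TAZ and TEAD4 only were set beside the 383 regions of this class elsewhere in the genome. The TAZ peaks of the interval's regions had a median −log10 p of 140 (27.4 to 205) against 32.1 elsewhere (22.0 to 253), a median enrichment of 7.95 against 6.04 and a median width of 909.5 against 503 bp. The TEAD4 peaks had medians of 147 against 45.5 for −log10 p, 8.16 against 7.01 for enrichment and 573 against 476 bp for width. The ranges overlap widely. A −log10 p above 80 was also found at 112 of the 383 TAZ peaks elsewhere (29.2%) and at 125 of the 395 TEAD4 peaks (31.6%). In the interval it was found at 73 of 78 TAZ peaks (93.6%) and 71 of 83 TEAD4 peaks (85.5%).

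The values at the edges follow. Just before 26 Mb all 4 lists had a peak at 1 site, with YAP at 11.6-fold (from 25971409 to 25971883), TAZ at 10.3-fold, TEAD4 at 5.22-fold and JUN at 10.95-fold. The first peaks inside began at 26020597 for JUN (7.96-fold), 26026938 for TEAD4 (4.26-fold), 26032706 for TAZ (7.35-fold) and 26032851 for YAP (6.11-fold). The last peaks before 29 Mb were at 4.57-fold for YAP, 4.52-fold for TAZ and 4.74-fold for TEAD4, all at 1 site near 28953397, and 14.8-fold for JUN. Beyond 29 Mb the next site held YAP at 11.1-fold (from 29110038 to 29110502), TAZ at 12.6-fold and TEAD4 at 10.4-fold, and the next JUN peak began at 29483844 (8.73-fold).

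Of the numbered TAZ and TEAD4 candidates, a larger share was listed in the interval than elsewhere. Peak names end in a number that ascends along the chromosome, and missing numbers were read as candidate peaks that did not enter the list, an assumption that no source used here states. On that reading 95 of 174 TAZ candidates were listed (54.6%, 46.9 to 62.2), against 23.0% on the rest of chromosome 6, and 98 of 157 for TEAD4 (62.4%, 54.3 to 70.01), against 30.9%. For YAP it was 8 of 58 (13.8%, 6.15 to 25.4) against 23.0%, and for JUN 24 of 154 (15.6%, 10.2 to 22.3) against 26.3%. Between the first and the last peak of each list in the interval, up to 50 YAP and 130 JUN candidates were therefore not listed. Their positions are not known here. The absence of a listed YAP or JUN peak at a TAZ or TEAD4 site accordingly describes the list and not the absence of YAP or JUN signal.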

How the data were processed

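Chromatin of MDA-MB-231 cells was sonicated and precipitated with antibodies to YAP, TAZ, TEAD4 or JUN, or with IgG, per the labels' protocols. The submitters' processing notes name build hg19 and the tools MACS2 2.0.10, Bowtie 0.12.7, CASAVA and SAMtools, without their roles. Peak calling by the authors compared each factor with pooled IgG and used the IDR (irreproducible discovery rate) approach at 0.01, per the labels; no further filter is stated. Each factor has 1 deposited list. It gives start, end and summit, the authors' fold enrichment over IgG (a ratio), and −log10 of the p-value per the authors; the deposited score and −log10 q-values were not used. Per the labels' raw file names, YAP, TAZ and rabbit IgG share a sequencing run that differs from those of TEAD4 and JUN. Read depth is unknown here.

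The interval, the lists and the stretches were chosen with earlier results of these data known. Densities on chromosome 6 use the 170.5 Mb spanned by the 4 lists. Overlap was at least 1 bp. Shares carry exact Clopper-Pearson 95% intervals and medians binomial order-statistic intervals, which treat peaks as independent although they cluster. No test was made. By rule, regions named are all YAP peaks, the 3 most enriched, 3 highest by −log10 p and the widest peak of the other lists, regions of all 4 factors, the 3 fullest 100-kb windows, the longest empty run and the peaks at the edges; others were named after their values were seen. Functions were tested on simulated peaks (Python 3.11.15, SciPy 1.17.1). Alternatives were edges moved by 250 kb, the stronger 50% of each list, other chromosomes as background, lists of 7709 peaks, other overlap rules, summits within 1 kb, summits closer than 500 bp counted once, and bases covered. No sequence of these regions was used, for lack of an hg19 genome here.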

Additional observations from a re-analysis of the deposited data

How the results depend on the processing

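Over 33 results, 149 of 181 alternative values stayed within the counting interval of the reported value or, for densities, within 1.5 times of it. With 8 YAP peaks these intervals are wide, so staying inside says little for YAP. A change of direction inside them was counted as staying. The share of YAP peaks with JUN, for example, differed by -13.1 points as reported and by 4.61 with the edges moved in. With a reciprocal overlap of 50%, the share of TAZ peaks with TEAD4 differed from the rest of chromosome 6 by -0.133 percentage points, and that of TEAD4 with TAZ by -7.07, both opposite to the reported direction. The differences with JUN were then -57.5 points for TAZ and -49.3 for TEAD4. With the stronger 50% of each list, the ratio of median enrichment to the rest fell to 0.90 for TEAD4, opposite to the reported 1.17. It fell to 0.85 for TAZ, where 1.06 was reported. This cut, made by −log10 p, kept a larger share of TAZ and TEAD4 peaks in the interval than on the rest. Ratios of density, enrichment and spacing on it carry that selection. On that setting the density ratio was 15.5 for TAZ and 17.3 for TEAD4, and the −log10 p ratio 2.06 and 1.95. The width ratio of TEAD4 was 1.05. Spacing ratios were 0.0934 for TAZ and 0.0522 for TEAD4, and for YAP 0.22, opposite in direction to the reported 2.90. The share with JUN differed by -55.4 points for TAZ and -48.4 for TEAD4, and that of TEAD4 with TAZ by 22.6. With lists of equal length, the differences for TAZ peaks were -80.5 points (YAP), 8.33 (TEAD4) and -37.7 (JUN), for TEAD4 peaks 20.4 (TAZ) and -32.0 (JUN), and for the 5 JUN peaks left -20.1 (TAZ), -43.0 (YAP) and -35.5 (TEAD4). With the edges moved in, TEAD4 with TAZ differed by 20.2 points. By bases covered, the density ratio of TAZ was 13.2. For the 4 shares of numbered candidates no alternative was run. Apart from that selection, the cause of these shifts was not tested. No fit without a replicate could be made, as both replicates of a factor enter the same list. No paired analysis was possible because peaks carry no replicate values. What depth limits is unknown here.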
